A study of Mus musculus with 9 samples.

Results

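The genes described are 9 components of the class I antigen processing pathway: the immunoproteasome catalytic subunits Psmb8, Psmb9 and Psmb10, the proteasome activator subunits Psme1 and Psme2, the peptide transporter subunits Tap1 and Tap2, the loading factor Tapbp, and the class I light chain B2m. They were chosen by gene symbol, without regard to their measured values. They account for 9 of 13152 genes and for 15 of 22626 probe sets that are not controls. Gene expression was measured on 9 Affymetrix mouse arrays, and the labels give 3 biological replicates of each of 3 populations of sorted CD8+ T cells. Postmitotic cells were CD44-lo CD62L-hi and effector cells, labelled effector memory, were CD44-hi CD62L-lo. Each preparation of either kind was sorted from 4 pooled male B6/SJL recipients on day 14. The recipients had been irradiated with 10 Gy and transplanted with CD44-lo CD62L-hi CD8+ T cells of female C3H.SW donors and with T cell-depleted bone marrow, a model of graft-versus-host disease in which donor T cells attack the recipient. Naive cells were CD44-lo CD62L-hi and came from 2 pooled normal female C3H.SW mice for each preparation. Postmitotic and naive cells thus shared 1 surface phenotype and differed in having passed through an irradiated, transplanted recipient. The age of the mice is not given in the labels.

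Cells continuously degrade their own proteins in the proteasome, and some of the resulting peptides are displayed on class I molecules for CD8+ T cells to inspect. In lymphocytes and in cells exposed to interferon gamma, Psmb8, Psmb9 and Psmb10 take the places of the constitutive catalytic subunits Psmb5, Psmb6 and Psmb7, forming the immunoproteasome. Psme1 and Psme2 form the PA28 cap that opens the core particle, Tap1 and Tap2 form the pump that moves peptides into the endoplasmic reticulum, and Tapbp (tapasin) bridges that pump to class I molecules. B2m is the invariant light chain of every class I molecule.

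Of the 9 genes, 5 lie on chromosome 17 in the major histocompatibility complex. In the RefSeq gene order, Psmb9, Tap1, Psmb8 and Tap2 are direct neighbours, placed between the class II genes H2-DMb1 and H2-Ob, and Tapbp lies apart from them on the same chromosome. Psme1 and Psme2 are on chromosome 14, Psmb10 is on chromosome 8 and B2m on chromosome 2. Sequences upstream of the start were matched in RefSeq, mouse assembly GRCm38.p6, for 8 of the 9 genes, Tap2 being without one. Psmb9 and Tap1 are transcribed away from each other, and all of the sequence between their starts is 225 bases long, at chr17:34187331-34187555 (61.33% G or C). It is shown first, on the plus strand, because both genes share it and their expression can be set side by side. The other sequences are the 250 bases before the start, on the strand of the gene. They are shown because Psmb8 and Psmb10 are catalytic subunits with different patterns over the cell populations, because Psme1 shared its pattern with Psmb10, and because B2m held the most motif matches. They lie at chr17:34197945-34198194 (plus strand) for Psmb8, chr8:105938393-105938642 (minus strand) for Psmb10, chr14:55578244-55578493 (plus strand) for Psme1 and chr2:122147437-122147686 (plus strand) for B2m.
Psmb9 and Tap1, shared: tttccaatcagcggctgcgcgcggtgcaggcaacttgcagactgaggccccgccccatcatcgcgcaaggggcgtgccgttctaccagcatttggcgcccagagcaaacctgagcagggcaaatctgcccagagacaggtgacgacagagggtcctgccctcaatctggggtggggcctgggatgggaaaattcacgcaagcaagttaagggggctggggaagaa
Psmb8: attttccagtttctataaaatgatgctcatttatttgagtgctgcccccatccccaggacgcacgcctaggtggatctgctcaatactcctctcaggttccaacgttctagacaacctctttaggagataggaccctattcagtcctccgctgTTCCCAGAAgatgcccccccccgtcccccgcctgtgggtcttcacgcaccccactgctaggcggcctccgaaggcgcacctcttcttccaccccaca
Psmb10: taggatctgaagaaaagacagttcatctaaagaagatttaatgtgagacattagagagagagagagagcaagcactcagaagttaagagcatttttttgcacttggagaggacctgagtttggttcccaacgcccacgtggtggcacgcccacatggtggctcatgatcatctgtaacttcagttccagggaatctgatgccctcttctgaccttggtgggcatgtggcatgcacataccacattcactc
Psme1: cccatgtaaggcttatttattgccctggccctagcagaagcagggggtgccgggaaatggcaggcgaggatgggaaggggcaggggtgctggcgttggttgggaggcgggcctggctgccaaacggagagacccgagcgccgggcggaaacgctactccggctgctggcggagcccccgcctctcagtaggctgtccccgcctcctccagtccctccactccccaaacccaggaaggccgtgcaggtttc
B2m: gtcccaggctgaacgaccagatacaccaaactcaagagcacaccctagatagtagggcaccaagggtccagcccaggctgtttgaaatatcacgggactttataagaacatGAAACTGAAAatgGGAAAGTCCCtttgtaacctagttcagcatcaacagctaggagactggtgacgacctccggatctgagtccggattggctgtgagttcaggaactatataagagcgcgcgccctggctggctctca
Capitals mark matches to 3 motifs, searched on both strands of the 250 bases before the start in all 32851 promoter windows of the RefSeq table. The GAS motif TTCNNNGAA, an interferon gamma-activated element, was in 7.02% of the windows. The ISRE core GAAANNGAAA, bound by interferon regulatory factors, was in 2.98%. An NF-kappaB motif, GGGANNTTCC, was in 1.21%. The shared Psmb9 and Tap1 interval held no match to any of them, and neither did Psmb10, Psme1, Psme2 or Tapbp. Psmb8 had 1 GAS match, TTCCCAGAA, 97 to 89 bases before its start. B2m had 1 ISRE core match, GAAACTGAAA, 139 to 130 bases before its start, followed at 126 to 117 bases by GGAAAGTCCC, the NF-kappaB motif read on the other strand. These 2 B2m matches do not overlap. Only the 3 patterns as written were searched, so variant sites were not counted. A match is a run of letters, and binding was not measured.

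Values are the authors' log2 signals, on which 1 unit is a doubling. On this scale zero signal is 6.64 and nothing can lie below 5.64. Differences were tested with limma across all 22626 probe sets, with the Benjamini-Hochberg adjusted p-value called at 0.05. A gene with several probe sets is represented by the one with the highest mean. Because the arrays were quantile-normalized, with medians of 7.90 on each, values are levels relative to the other transcripts of the same cells. In bulk RNA, fewer cells of a type and less RNA per cell cannot be told apart. Cd44 followed the sort, with values of 7.60, 7.52 and 6.87 on the postmitotic arrays, 10.89, 11.28 and 11.17 on the effector arrays and 7.59, 6.94 and 7.30 on the naive arrays. Effector replicate 3 and postmitotic replicate 3 stood apart from the other 7 arrays in Y-linked transcripts: the transcript of Eif2s3y read 11.47 on the postmitotic one, 9.50 on the effector one and no more than 7.02 elsewhere. Donors were female and recipients male. Values without these 2 arrays are given beside the main results of the 9 genes.

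All 9 genes gave signal well above zero in every population. The representative probe sets of the 9 genes had values from 11.09 (Tap2) to 15.79 (B2m), on arrays with a maximum between 16.4 and 16.6. In postmitotic minus naive cells, 5 of the 9 genes were called higher (Psmb8, Psmb9, Psmb10, Psme1 and Psme2) and none lower, and 4 were not called. Over all probe sets tested, 8.19% were called in that comparison, 4.23% as higher, and among the probe sets as bright as the 9 genes 8.04% were called higher. The median log2 difference of the 9 genes was 0.39, against -0.01 over all probe sets. At an unadjusted p under 0.05, 6 of the 9 genes differed, against 23.6% of all probe sets. The count of 5 rested on all 9 arrays: it was 3 without postmitotic replicate 3, 2 without effector replicate 1, 1 on leaving out any other single array and 0 without both arrays with Y-linked signal. It was 1 in a fit of the 6 postmitotic and naive arrays alone. All 3 postmitotic arrays lay above all 3 naive arrays in 7 of the 9 genes, against 13% of all probe sets.

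In effector minus naive cells, 3 of the 9 genes were called higher (Psmb8, Psmb9 and B2m) and none lower. In this comparison 26% of all probe sets were called, 12.4% as higher. Among equally bright probe sets 23.2% were called higher, so 3 of 9 lies close to the background. The median difference of the 9 genes was 0.25, against -0.05 over all probe sets. At an unadjusted p under 0.05, 5 of the 9 genes differed, against 35.9% of all probe sets. The count of 3 was 2 without effector replicate 1 or any 1 postmitotic array, and 1 without any 1 naive array, effector replicate 2 or effector replicate 3. In postmitotic minus effector cells, 2 of the 9 were called higher (Psmb10 and Psme1) and none lower, where 20% of all probe sets were called, 10.4% as higher. The share called higher was 21.5% among equally bright probe sets, close to 2 of 9. The median difference of the 9 genes was 0.13, against 0.03 over all probe sets, and 3 of them had an unadjusted p under 0.05, against 31.5% of all probe sets. The count was also 2 on leaving out any single array, and it was 1 without both arrays with Y-linked signal. All 3 effector arrays lay above all 3 naive arrays in 7 of the 9 genes (19.2% of all probe sets), and the postmitotic arrays lay above the effector arrays in 4 (20.7%) and below them in 3 (18.1%). These comparisons share arrays, the naive arrays in the first pair and the effector or postmitotic arrays in the others.

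**Figure D1:**
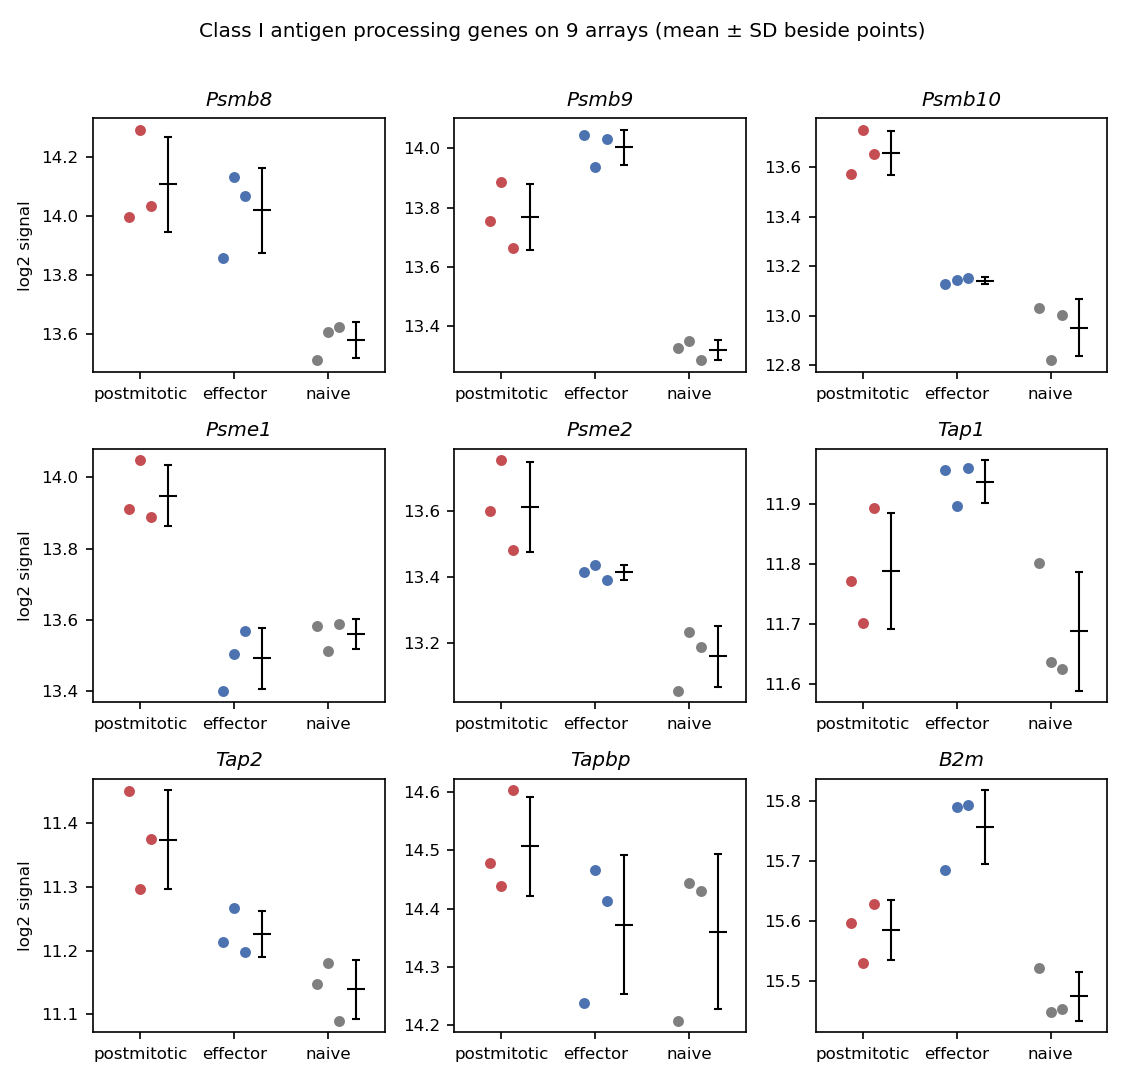
Log2 signal of the representative probe set of each of the 9 genes on every array. Each point is 1 array, grouped as postmitotic, effector and naive cells (3 arrays each), and the bars beside them give the mean and SD (n = 3). All 3 postmitotic arrays lie above all other arrays in Psmb10, Psme1, Psme2 and Tap2, and all 3 effector arrays do so in Psmb9, Tap1 and B2m. Only Psmb10 and Psme1 were called higher in postmitotic cells than in both other populations.

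The catalytic subunits of the immunoproteasome did not share 1 pattern. Psmb8 (LMP7), which carries the chymotrypsin-like activity, was above naive cells in both transplanted populations. Psmb8 read 14.00, 14.29 and 14.04 on the postmitotic arrays (replicates 1, 2 and 3), 13.86, 14.13 and 14.07 on the effector arrays, and 13.51, 13.61 and 13.63 on the naive arrays. Every postmitotic and effector array lay above every naive array, while the postmitotic and effector arrays overlapped. The Psmb8 difference was 0.53 ± 0.12 in postmitotic minus naive cells (SE, 1.44-fold, adjusted p = 0.0354, n = 3 per group by limma). In effector minus naive cells it was 0.44 ± 0.12 (1.35-fold, adjusted p = 0.0291). Between postmitotic and effector cells it was 0.09, with a 95% confidence interval of -0.19 to 0.37.

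Psmb9 (LMP2), which takes the place of the caspase-like subunit Psmb6, had its highest values in effector cells. Psmb9 read 13.76, 13.89 and 13.66 on the postmitotic arrays, 14.04, 13.94 and 14.03 on the effector arrays and 13.32, 13.35 and 13.28 on the naive arrays. The 3 populations did not overlap. Psmb9 was 1.61-fold higher in effector than in naive cells (log2 0.68 ± 0.10 SE, adjusted p = 0.00111, by limma) and 1.37-fold higher in postmitotic than in naive cells (0.45 ± 0.10, adjusted p = 0.0279). The difference of -0.24 between postmitotic and effector cells was not called (adjusted p = 0.135).

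Psmb10 (MECL-1), which takes the place of the trypsin-like subunit Psmb7, stood apart in postmitotic cells. Psmb10 read 13.57, 13.75 and 13.65 on the postmitotic arrays, 13.13, 13.14 and 13.15 on the effector arrays and 13.03, 12.82 and 13.00 on the naive arrays. All 3 postmitotic arrays lay above all 6 others. Psmb10 was higher in postmitotic cells than in naive cells (0.71 ± 0.10 SE, 1.63-fold, adjusted p = 0.00651) and than in effector cells (0.52 ± 0.10, 1.43-fold, adjusted p = 0.0074, both by limma). The difference of 0.19 in effector minus naive cells was not called (adjusted p = 0.217, interval -0.04 to 0.42). Psmb10 and Psme1 were among 278 probe sets (1.23% of all) called higher in postmitotic cells than in both other populations.

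Among the postmitotic arrays, replicate 2 had the highest value in all 5 of the immunoproteasome and PA28 subunits. The calls differed in how far they rested on single arrays. Leaving out each of the 9 arrays in turn kept the call of Psmb9 in effector minus naive cells and both calls of Psmb10 in all 9 fits. Psmb8 in effector minus naive cells was lost in 5 of the 9 fits, those without naive replicate 1, 2 or 3 or without effector replicate 2 or 3 (highest adjusted p 0.106). In postmitotic minus naive cells, Psmb8 kept its call in 1 fit, without effector replicate 1 (highest adjusted p elsewhere 0.0968). Psmb9 kept it in 1 fit, without postmitotic replicate 3 (highest 0.0906). Without both arrays with Y-linked signal, the differences of Psmb10 were 0.71 (adjusted p = 0.0596) over naive and 0.53 (0.0676) over effector cells, close to their size with all arrays. Psmb8 then differed from naive cells by 0.56 (0.122) in postmitotic and 0.41 (0.117) in effector cells. Psmb9 differed by 0.50 (0.09) in postmitotic and by 0.67 (0.0105) in effector cells.

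The constitutive counterparts, which use the same positions in the core particle, were measured on the same arrays. Psmb7, the counterpart of Psmb10, read 12.37, 12.39 and 12.14 on the postmitotic arrays, 12.89, 12.70 and 12.77 on the effector arrays and 11.69, 11.68 and 11.77 on the naive arrays. The populations did not overlap, with the effector arrays highest. Psmb7 rose by 1.08 in effector over naive cells (adjusted p = 0.000171) and by 0.59 in postmitotic over naive cells (0.0156), and fell by 0.49 in postmitotic relative to effector cells (0.0128). Psmb5, the counterpart of Psmb8, read 13.38, 13.54 and 13.46 on the postmitotic arrays, 13.67, 13.86 and 13.82 on the effector arrays and 13.00, 13.17 and 13.10 on the naive arrays. Psmb5 rose by 0.69 in effector over naive cells (adjusted p = 0.00137), and its difference of 0.38 in postmitotic over naive cells was not called (0.0603). Psmb6, the counterpart of Psmb9, read 12.23, 12.32 and 12.22 on the postmitotic arrays, 12.33, 12.41 and 12.43 on the effector arrays and 12.24, 12.06 and 12.17 on the naive arrays. None of the Psmb6 differences was called (adjusted p 0.107 to 0.579). Without both arrays with Y-linked signal, Psmb7 differed by 0.67 (0.056) in postmitotic minus naive cells, by 1.09 (0.00226) in effector minus naive cells and by -0.42 (0.097) in postmitotic minus effector cells.

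The change of each immunoproteasome subunit was then set against that of its counterpart, on the log2 difference of the pair within each array. The pair change was -0.89 for Psmb10 against Psmb7 in effector minus naive cells and 1.01 in postmitotic minus effector cells. A negative value means that the immunoproteasome subunit lay lower relative to its counterpart. For Psmb8 against Psmb5 the pair change was -0.26 in effector minus naive cells, 0.15 in postmitotic minus naive cells and 0.41 in postmitotic minus effector cells. For Psmb9 against Psmb6 it was 0.45, 0.35 and -0.10 in the same order. For Psmb10 against Psmb7 in postmitotic minus naive cells it was 0.12. The groups of 3 arrays did not overlap in 7 of these 9 pair changes. The exceptions were Psmb9 against Psmb6 in postmitotic minus effector cells and Psmb10 against Psmb7 in postmitotic minus naive cells. The Psmb10 value minus the Psmb7 value averaged 1.36 ± 0.15 in postmitotic, 0.35 ± 0.11 in effector and 1.24 ± 0.10 in naive cells (SD, n = 3 each). An exact two-sided permutation test of 3 arrays against 3 cannot go below 0.1, so the pair changes are given as a description, with no call. A pair value compares the changes of 2 probe sets and is no ratio of transcripts, since probe sets differ in their response.

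**Figure D2:**
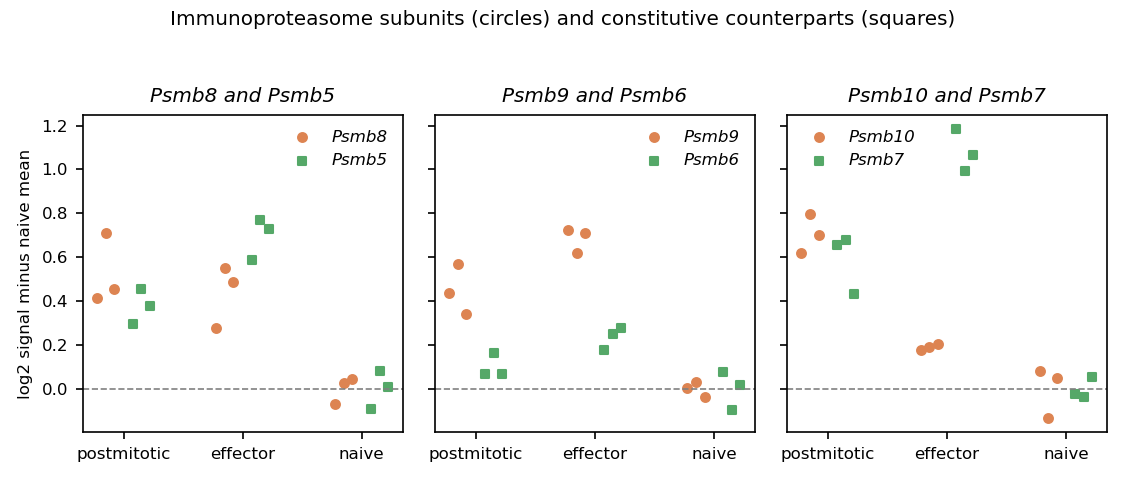
Log2 signal of each immunoproteasome catalytic subunit beside its constitutive counterpart, relative to the naive mean of the same probe set. Points are arrays, grouped by population (3 each), with circles for the immunoproteasome subunit and squares for the counterpart. In effector cells Psmb7 and Psmb5 lie above Psmb10 and Psmb8, while Psmb9 lies above Psmb6.

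The PA28 subunits were both called higher in postmitotic than in naive cells. Psme1 (PA28 alpha) read 13.91, 14.05 and 13.89 on the postmitotic arrays, 13.40, 13.50 and 13.57 on the effector arrays and 13.58, 13.51 and 13.59 on the naive arrays. The postmitotic arrays lay above all others, and the effector and naive arrays overlapped. The Psme1 difference was 0.39 ± 0.10 (SE) in postmitotic minus naive cells (1.31-fold, adjusted p = 0.0456) and 0.46 ± 0.10 in postmitotic minus effector cells (1.37-fold, adjusted p = 0.0108), by limma with n = 3 per group. Psme1 did not pass between effector and naive cells (-0.07, adjusted p = 0.674, interval -0.29 to 0.15).

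Psme2 (PA28 beta), the partner of Psme1 in the heteromeric cap, had effector values above naive values. Psme2 read 13.60, 13.76 and 13.48 on the postmitotic arrays, 13.42, 13.44 and 13.39 on the effector arrays and 13.06, 13.23 and 13.19 on the naive arrays. All 3 populations were separate, with postmitotic values highest. Psme2 was called in postmitotic minus naive cells only (0.45 ± 0.10 SE, 1.37-fold, adjusted p = 0.0361), with 0.26 in effector minus naive cells (adjusted p = 0.118) and 0.20 in postmitotic minus effector cells (0.244). The call of Psme1 over naive cells was lost on leaving out any 1 array (adjusted p 0.0675 to 0.125), and that of Psme2 was lost except without postmitotic replicate 3 (highest 0.101). The call of Psme1 over effector cells was kept in all 9 fits. Without both arrays with Y-linked signal, Psme1 differed from effector cells by 0.53 (adjusted p = 0.0479) and from naive cells by 0.42 (0.127), and Psme2 differed from naive cells by 0.52 (0.0966) in postmitotic cells.

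The transporter subunits gave no call in any comparison. Tap1, whose start lies beside that of Psmb9, read 11.77, 11.70 and 11.89 on the postmitotic arrays, 11.96, 11.90 and 11.96 on the effector arrays and 11.80, 11.64 and 11.63 on the naive arrays. The effector arrays lay above all others. The Tap1 difference was 0.25 in effector minus naive cells (adjusted p = 0.107, interval 0.02 to 0.48) and 0.10 in postmitotic minus naive cells (0.604, interval -0.13 to 0.33). It was -0.15 in postmitotic minus effector cells (0.364, interval -0.38 to 0.08). Without both arrays with Y-linked signal, Tap1 differed by 0.05 in postmitotic minus naive cells and by 0.24 in effector minus naive cells (0.866 and 0.225). Another 3 Tap1 probe sets had values from 5.64 to 7.36, near zero signal. They gave no call, and no size is given for them. Tap2, the partner of Tap1 in the pump, read 11.45, 11.30 and 11.38 on the postmitotic arrays, 11.21, 11.27 and 11.20 on the effector arrays and 11.15, 11.18 and 11.09 on the naive arrays. All 3 of its populations were separate, with postmitotic values highest. The Tap2 difference was 0.23 in postmitotic minus naive cells (adjusted p = 0.159, interval 0.03 to 0.44), 0.09 in effector minus naive cells (0.554) and 0.15 in postmitotic minus effector cells (0.313). With the 2 arrays that gave Y-linked signal left out, Tap2 differed from naive cells by 0.23 in postmitotic and 0.10 in effector cells (0.325 and 0.612).

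**Figure D3:**
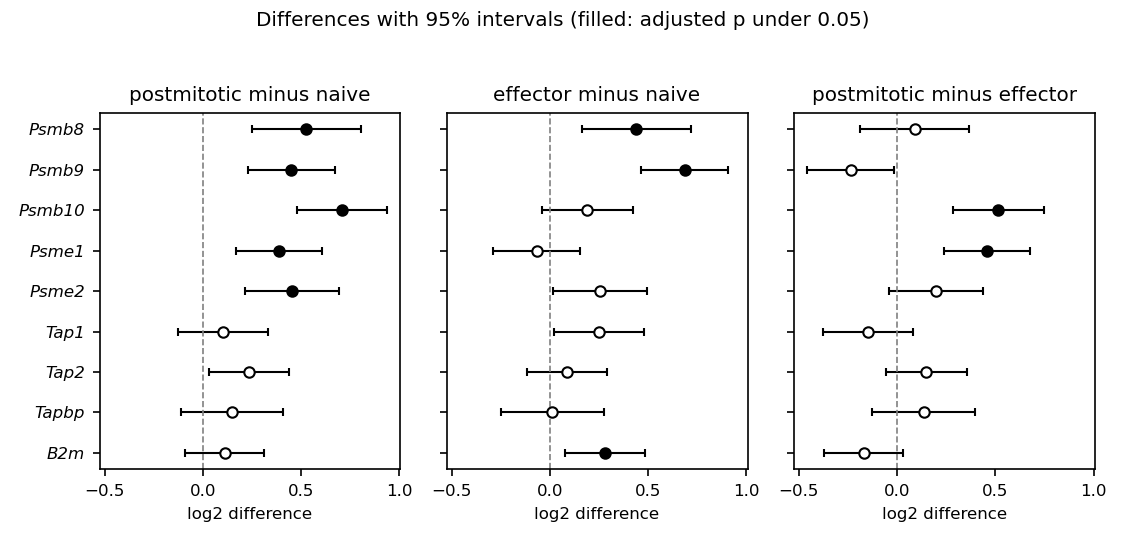
Log2 differences of the 9 representative probe sets in the 3 comparisons, with 95% confidence intervals from limma. Filled symbols passed the adjusted p threshold of 0.05 and open symbols did not. The 5 filled symbols in postmitotic minus naive cells belong to the subunits of the immunoproteasome and PA28.

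Tapbp and B2m had several probe sets that did not move together. The brighter Tapbp probe set read 14.48, 14.44 and 14.60 on the postmitotic arrays, 14.24, 14.47 and 14.41 on the effector arrays and 14.21, 14.44 and 14.43 on the naive arrays. The populations overlapped, and no difference was called. The difference was 0.15 in postmitotic minus naive cells (adjusted p = 0.493, interval -0.11 to 0.41) and 0.01 in effector minus naive cells (0.96, interval -0.25 to 0.27). In the fit lacking the 2 arrays that gave Y-linked signal, it was 0.10 in postmitotic and -0.01 in effector over naive cells (0.755 and 0.98). The dimmer Tapbp probe set read 8.64, 8.76 and 8.60 on the postmitotic arrays, 8.18, 8.23 and 8.32 on the effector arrays and 8.57, 8.86 and 9.07 on the naive arrays. The effector arrays lay below all others, and the difference of -0.59 in effector minus naive cells was called (adjusted p = 0.0131) and kept in all 9 fits with 1 array left out (-0.63 and 0.0494 without both arrays with Y-linked signal). That of 0.42 in postmitotic minus effector cells was not called (0.0658). No direction is drawn for Tapbp in effector cells, since its probe sets differed.

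B2m was among the brightest transcripts, with its representative probe set between the 99.6th and 99.8th percentile of each array. This probe set read 15.60, 15.53 and 15.63 on the postmitotic arrays, 15.68, 15.79 and 15.79 on the effector arrays and 15.52, 15.45 and 15.45 on the naive arrays. The populations did not overlap, with the effector arrays highest. The difference of 0.28 ± 0.09 (SE) in effector minus naive cells, 1.21-fold, was just inside the threshold (adjusted p = 0.0489) and was lost on leaving out any 1 array (0.0503 to 0.156) or both arrays with Y-linked signal (0.26, adjusted p = 0.161). B2m did not pass in postmitotic minus naive cells (0.11, 0.511) or in postmitotic minus effector cells (-0.17, 0.234). A second B2m probe set, with values from 14.39 to 15.09, gave no call. Its highest value was on postmitotic replicate 3.

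The dimmest B2m probe set read 10.35, 10.73 and 10.54 on the postmitotic arrays, 9.97, 10.21 and 10.07 on the effector arrays and 10.49, 11.31 and 10.97 on the naive arrays. It lay lower in effector cells, opposite to the brightest one, by -0.84 against naive cells (adjusted p = 0.0173). Its adjusted p was 0.055 on leaving out naive replicate 3, 0.061 on leaving out effector replicate 1 and 0.056 on leaving out effector replicate 3, and 0.083 (-0.83) when both arrays carrying Y-linked signal were left out. With the mean of the B2m probe sets in place of the brightest, the difference in effector minus naive cells was -0.16, so no direction is drawn for B2m between these populations. The array's own control probe sets differed between the populations too. The 3' probe set exceeded the 5' probe set by 1.35 to 1.48 for actin on the postmitotic arrays, by 0.78 to 0.97 on the effector arrays and by 1.28 to 1.87 on the naive arrays. For the transferrin receptor the excess was 1.07 to 1.75 on the postmitotic arrays, 1.28 to 1.94 on the effector arrays and 0.38 to 0.54 on the naive arrays. For Gapdh it was 2.89 to 2.96 on the postmitotic arrays, 2.84 to 2.88 on the effector arrays and 2.99 to 3.12 on the naive arrays. The part of these differences in the disagreement between probe sets was not tested.

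**Figure D4:**
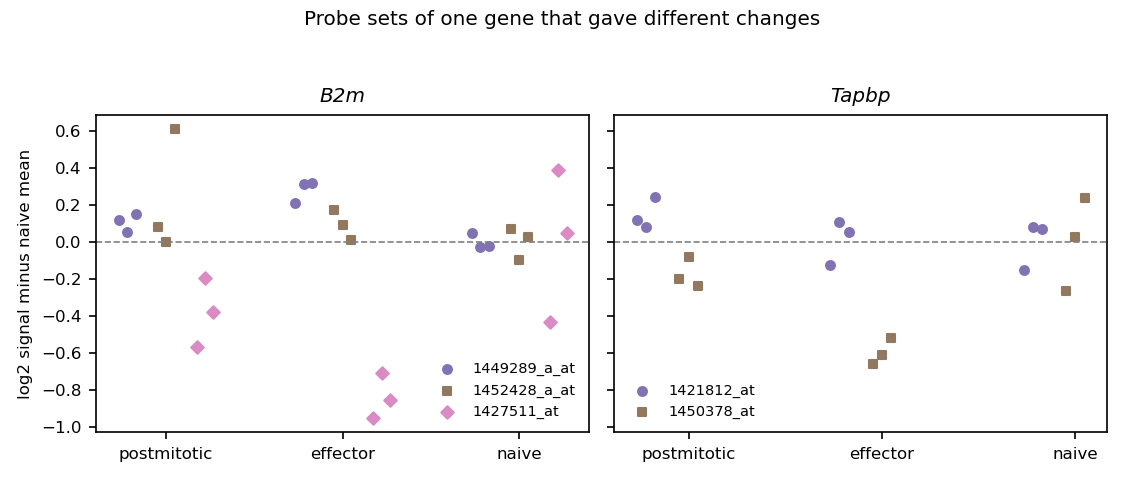
Log2 signal of each Tapbp and B2m probe set on every array, relative to its own naive mean. Symbols mark the probe sets and points are arrays, 3 per population. In effector cells the dimmest probe set of each gene averages -0.59 for Tapbp and -0.84 for B2m, while the brightest B2m probe set averages 0.28.

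The heavy chains that pair with B2m and other parts of the pathway were counted from 9 lists, each gene once by its brightest probe set. Of 8 class I heavy chain genes measured, 0 were called in postmitotic minus naive cells. In effector minus naive cells 1 was higher, H2-Q10 (0.99, adjusted p = 0.0212), and 1 was lower, H2-T22 (-0.91, 0.0311). These 2 calls became 0 without effector replicate 2, without effector replicate 3 or without both arrays with Y-linked signal. Over all probe sets 8.19% were called in postmitotic minus naive, 26% in effector minus naive and 20% in postmitotic minus effector cells. In postmitotic minus effector cells H2-M3, a chain that presents formylated peptides, was higher (0.41, 0.023) and H2-Q10 lower (-1.15, 0.0131). The classical chains H2-K1 and H2-D1 gave no call: H2-K1 had -0.04 in postmitotic minus naive cells (0.851) and 0.13 in effector minus naive cells (0.387), and H2-D1 had -0.05 (0.843) and 0.15 (0.393). Class I genes are close copies of each other, so probe sets can bind several of them.

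The list of chaperones and trimming peptidases held 16 measured genes, with Sec61a1, Sec61b and Sec61g of the Sec61 channel among them. Of these 16, 5 were called higher and 1 lower in postmitotic minus naive cells. In effector minus naive cells 6 were higher and 0 lower (medians 0.19 and 0.26 in the 2 comparisons). Over all probe sets 4.23% were called higher in postmitotic minus naive cells and 12.4% in effector minus naive cells. The 6 postmitotic calls became 0 in a fit of the 6 postmitotic and naive arrays alone. In postmitotic minus effector cells 1 was higher and 3 lower. The disulfide isomerase Pdia6 rose by 0.67 in postmitotic over naive cells (adjusted p = 0.0113) and by 1.27 in effector over naive cells (9.29e-05). Pdia3, the isomerase of the peptide-loading complex, rose by 0.44 in postmitotic (0.031) and by 0.66 in effector cells (0.00133). Erap1, which trims peptides in the endoplasmic reticulum, rose in postmitotic cells, by 0.48 over naive cells (0.0188) and by 0.36 over effector cells (0.0239). Its difference of 0.11 in effector minus naive cells was not called (0.427). The tapasin relative Tapbpl was higher in postmitotic than in naive cells (0.59, 0.0145), and the cytosolic peptidase Blmh was higher in effector than in naive cells (0.73, 0.000828).

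Of the rest of the proteasome, 7 of 12 other core particle subunits and 13 of 23 subunits of the 19S regulatory cap were called higher in effector minus naive cells, beside 12.4% of all probe sets and 23.2% of those as bright as the 9 genes. The 13 cap subunits became 7 on leaving out effector replicate 1 or effector replicate 3 and 8 on leaving out effector replicate 2. Of 3 constitutive catalytic subunits, 1 was higher in postmitotic minus naive cells and 2 in effector minus naive cells. Of the 12 other core particle subunits, 3 were higher in postmitotic minus naive cells, with none lower in either comparison and medians of 0.40 in postmitotic and 0.63 in effector cells. Psma1 rose by 0.99 in effector over naive cells (adjusted p = 0.00057) and fell by 0.56 in postmitotic relative to effector cells (0.0133). Psmb2 rose in both, by 0.63 in postmitotic (0.0107) and by 0.83 in effector cells (0.00057). The 19S cap unfolds ubiquitin-tagged proteins. Of its 23 subunits, 3 were higher and 1 lower in postmitotic minus naive cells, with a median of 0.20, and 2 were lower in effector minus naive cells, with a median of 0.37. In postmitotic minus effector cells 0 of the 23 were higher and 3 lower, and among the 12 core subunits 1 was higher and 2 lower. The higher core subunit was Psma8, with all of its effector values below zero signal, so no size is given for it. Of 8 assembly factors and other regulators, 1 was higher and 0 lower in postmitotic minus naive cells. In effector minus naive cells 2 were higher and 1 lower, and in postmitotic minus effector cells 2 were higher and 1 lower. Over all probe sets 8.19%, 26% and 20% were called in these comparisons, in the same order. Psme3 (PA28 gamma), the nuclear relative of Psme1 and Psme2, rose by 0.30 in effector over naive cells (0.0302, and 0.32 with 0.0869 without both arrays with Y-linked signal) and had 0.09 in postmitotic minus naive cells. Pomp, a chaperone of proteasome assembly, rose by 0.73 in effector over naive cells (0.000741) and had 0.34 in postmitotic over naive cells (0.068). Psmg1, an early assembly chaperone, rose in postmitotic cells, by 0.56 over naive cells (0.0228) and by 0.78 over effector cells (0.00164). Without both arrays with Y-linked signal, 8 of the 12 core and 7 of the 23 cap subunits were called higher in effector minus naive cells, and 1 and 0 in postmitotic minus naive cells. Of the chaperones and peptidases, 0 were then called in postmitotic minus naive cells and 3 higher in effector minus naive cells.

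**Figure D5:**
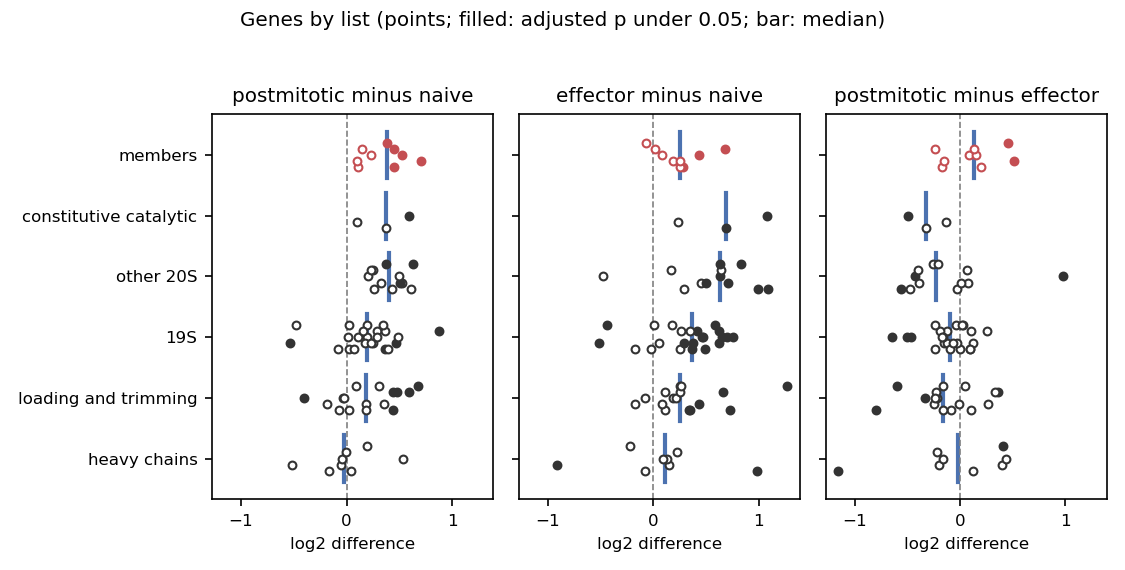
Log2 differences of the 9 genes (top) and of every measured gene of 5 pathway lists, with 1 line per list and 1 panel per comparison. Filled points passed the adjusted p threshold of 0.05, and a vertical mark gives each median. Core particle and 19S cap genes lie mostly to the right of 0 in effector minus naive cells, with medians of 0.63 and 0.37.

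Among 17 regulators of class I genes, 3 were higher and 1 lower in postmitotic minus naive cells, 3 higher and 0 lower in effector minus naive cells, and 2 higher and 1 lower in postmitotic minus effector cells. Over all probe sets 8.19%, 26% and 20% were called in these comparisons. Irf1, a transcription factor that induces immunoproteasome genes, gave no call, with 0.22 in postmitotic minus naive cells (adjusted p = 0.19) and -0.01 in effector minus naive cells (0.934). Irf7, an interferon regulatory factor, rose in postmitotic cells, by 0.88 over naive cells (0.00175) and by 0.70 over effector cells (0.000888). Irf8 rose by 0.97 in postmitotic (0.0101) and by 3.22 in effector over naive cells (3.79e-06).

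Of 9 interferon gamma signalling genes, 3 were higher and 1 lower in postmitotic minus naive cells, where 8.19% of all probe sets were called. In effector minus naive cells 2 were higher and 4 lower (26% of all probe sets called). In postmitotic minus effector cells 5 were higher and 2 lower (20% called). Ifng, the ligand, rose by 2.04 in postmitotic over naive cells (0.000732) and by 7.72 in effector over naive cells (1.58e-07), from a naive mean of 6.9 near zero signal, so both sizes are approximate. The receptor chain Ifngr2 read 6.83, 6.35 and 6.56 on the effector arrays, around zero signal, so the size of its fall there is approximate (-1.76 relative to naive cells, adjusted p = 0.000118, and -1.64 to -3.60 over the alternatives). It read 7.73, 7.47 and 7.92 on the postmitotic arrays and 8.40, 8.21 and 8.41 on the naive arrays and had -0.63 in postmitotic minus naive cells (0.0526). The other chain, Ifngr1, had 0.24 in postmitotic minus naive cells and -0.12 in effector minus naive cells, neither called. In postmitotic minus effector cells Ifngr1 had 0.32 to 0.42 over the 20 alternatives and was called in 10 of them. Ifngr2 had 1.01 to 2.65 in that comparison and was called in all 20. The feedback inhibitor Socs3 rose by 1.35 in postmitotic over naive cells (0.00142), and fell by 1.14 in effector relative to naive cells (0.000362). Socs1, an inhibitor of JAK kinases, rose by 0.89 in postmitotic over naive cells (0.0241) and by 1.32 over effector cells (0.00138). A link between these genes and the 9 was not tested.

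Antigen-presenting cells also express these 9 genes, and class II genes and dendritic cell markers were measured beside them. Of 11 class II pathway genes, 0 were called in postmitotic minus naive cells, where 8.19% of all probe sets were called. Of the same genes, 2 were higher and 2 lower in effector minus naive cells (26% of all probe sets called). In postmitotic minus effector cells 3 class II genes were higher (20% called). Postmitotic replicate 1 stood apart in 3 of the class II genes, near the level of effector cells. H2-Aa read 11.14 on it against 9.09 and 9.33 on replicates 2 and 3, H2-Ab1 read 9.42 against 7.82 and 7.61, and H2-Eb1 read 9.85 against 8.52 and 7.83. The myeloid marker Csf1r read 11.02 on replicate 1 against 8.97 and 9.39 on replicates 2 and 3. In naive cells Csf1r read 11.39, 10.86 and 10.92, so replicate 1 lay within the naive range and replicates 2 and 3 below it. On the effector arrays Csf1r read 10.85, 12.40 and 11.91. Without postmitotic replicate 1, 2 of the 11 class II genes were called higher and 5 lower in postmitotic minus effector cells. Of the 9 antigen processing genes, 1 was then called in postmitotic minus naive cells, 2 in effector minus naive cells and 2 in postmitotic minus effector cells. Over all 22626 probe sets, 1212, 5675 and 3936 were then called in the same order, the last as 1940 higher and 1996 lower. The part of the class II and myeloid transcripts in the results was not tested. H2-Ab1 rose by 2.19 in effector over naive cells (adjusted p = 0.00862), and H2-Aa by 1.87 (0.0191), while H2-DMa fell by 1.76 (8.76e-06). Of 6 dendritic cell markers measured, 0 were called in postmitotic minus naive cells and 1 in effector minus naive cells (Itgax, 1.23, adjusted p = 0.00603). Their summed linear signal was 274 to 309 on the postmitotic arrays, 551 to 801 on the effector arrays and 283 to 415 on the naive arrays. None of the 6 was at or below zero signal on all arrays. The 13 myeloid markers summed to 1276 to 3753 on the postmitotic arrays, 3373 to 7727 on the effector arrays and 3342 to 4661 on the naive arrays, none of them at zero on all arrays. Csf1r was the brightest of the 13 on every effector array, so the effector sums lean on 1 probe set. Lyz1 read 8.82, 9.61 and 9.33 on the effector arrays and 10.43, 9.82 and 9.59 on the naive arrays. In effector minus naive cells Cd68 was higher (1.76, 0.000151) and Cd14 was called lower, with all effector values of Cd14 below zero signal. The 9 B cell markers summed to 717 to 1011 on the postmitotic arrays, 923 to 1103 on the effector arrays and 827 to 909 on the naive arrays, with 2 called higher and 1 lower in effector minus naive cells. The 5 NK cell markers summed to 62.5 to 321 on the postmitotic arrays, 281 to 705 on the effector arrays and 64.0 to 240 on the naive arrays, with Klrb1c at or below zero on all arrays and none called. The 5 CD4 and regulatory T cell markers summed to 315 to 492 on the postmitotic arrays, 504 to 624 on the effector arrays and 286 to 525 on the naive arrays, with 1 called higher in effector minus naive cells (Foxp3, 0.64, adjusted p = 0.0238). The 9 erythroid and megakaryocytic markers summed to 694 to 1334 on the postmitotic arrays, 778 to 1179 on the effector arrays and 820 to 1140 on the naive arrays, with 2 called lower in effector minus naive cells, of which Hbb-b1 was at or below zero signal on all arrays. By comparison 6 T cell genes summed to 64873 to 68519 on the postmitotic arrays, 73826 to 75280 on the effector arrays and 68071 to 68738 on the naive arrays. In postmitotic minus effector cells, 2 dendritic cell markers, 3 myeloid markers and 1 CD4 or regulatory T cell marker were called lower. Of the B cell markers 1 was higher and 1 lower, and 20% of all probe sets were called in that comparison. The part of other cells in the effector and postmitotic values of the 9 genes was not tested.

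The shifts of the 9 genes were small. The median of their log2 values over the naive mean was 0.35, 0.49 and 0.32 on the postmitotic arrays and 0.21, 0.21 and 0.23 on the effector arrays. All 9 lay above their naive mean on each postmitotic array, and 7, 8 and 9 did so on the effector arrays. The genes whose profile over the 9 arrays was nearest to the mean centred profile of the 9 were Glrx2, Pdlim2, Ms4a6b, Mrps7, Eif2s1, Prdx5, Atp6v1f and Arl6ip4, with root mean square distances of 0.0335 to 0.0557. The 9 genes themselves lay farther away, from 0.0846 for Psme2 to 0.201 for Psmb9, and a flat profile lay at 0.147. At this size of change the measure does not single out the pathway, with 579 genes nearer than a flat profile.

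The authors' deposited table selected 3 probe sets of these genes between effector and naive cells, at p under 0.01 and a fold over 1.5, where it selected 16.1% of all probe sets. In the authors' deposited table these were Psmb9, with a signed fold of 1.61, and the dimmer probe sets of Tapbp (-1.51) and B2m (-1.79). Between postmitotic and naive cells the authors' deposited table selected 1, Psmb10 (1.63), with 5.37% of all probe sets selected, and between postmitotic and effector cells 0, with 12.6% selected.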

How the data were processed

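Per the file headers and the deposited readme, the authors made 1 trimmed-mean signal for each probe set from the array scans, matched the quantiles of every array to those of 1 naive array, and added 50 (with negative sums set to 0) and another 50 before taking the log2 values they deposited. The p-values deposited beside them are pairwise contrasts without adjustment, the deposited fold columns are ratios derived from the authors' group means, and the authors' deposited score is a signed fold for the probe sets they selected. Of the software, no version is stated in the file headers. Per the labels' protocols, 600 ng of RNA went through 2 rounds of amplification.

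From these values limma 3.58.1 in R 4.3.3 was fitted to 22626 non-control probe sets of 22690 on all 9 arrays, with 1 mean per group and no covariate (6 residual and 2.22 prior degrees of freedom), with Benjamini-Hochberg adjustment over all of them. The script was tested on simulated data. Symbols were updated through a RefSeq gene table. Probe sets that name several genes, or no gene, stood for no gene. Genes named in the text are the 9 members with every probe set, from each pathway list up to 3 called genes with the largest difference in a comparison, a few further list genes named whatever their values (Psmb5, Psmb6, Psmb7, Psme3, Irf1, Ifng, Ifngr1, Ifngr2, H2-K1 and H2-D1), cell markers, and the 8 genes of nearest profile. Some genes that this rule names are not reported here. Equally bright probe sets are those with a mean at least that of the dimmest representative member. The members and lists were chosen with earlier results of these data known. Arrays have no count depth, and the number of arrays limits the precision: p-values measure the spread between the 3 pools of each group. Alternatives changed the normalization, the offset, the probe set rule, the variance prior, the arrays in the fit and a replicate block.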

Additional observations from a re-analysis of the deposited data

How the results depend on the processing

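Under 20 alternatives, 459 of 540 values of the 9 genes kept direction and call, 66 lost the call, 4 gained it and 11 changed sign, of which 1 belonged to a called result (B2m in effector minus naive cells, -0.16 with the mean of a gene's probe sets). The count of genes called among the 9 was 1 in postmitotic minus naive cells with the 6 arrays compared alone and 0 without both arrays with Y-linked signal, where it was 1 in effector minus naive and 1 in postmitotic minus effector cells. A variance prior with trend and robust fitting gave 5 in effector minus naive cells, all higher, and 4 in postmitotic minus effector cells, 2 higher and 2 lower. Over all 22626 probe sets it called 6753 and 5600 in these comparisons, against 5884 and 4536 in the main fit. Leaving out 1 array gave 1 to 3 in postmitotic minus naive, 1 to 2 in effector minus naive and 2 in postmitotic minus effector cells. Same-numbered arrays correlated by 0.0092 to 0.0707 in their deviations from the group means, and differently numbered arrays by -0.0521 to 0.0180. The main fit has no pairing, and whether the numbers pair the arrays was not tested. With the replicate block 2 of the 9 genes and 1164 probe sets were called in postmitotic minus naive cells, against 5 and 1854 in the main fit.

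With the mean of probe sets, 13152 genes were tested in place of 22626 probe sets, and 1130 were called in postmitotic minus naive, 3630 in effector minus naive and 2911 in postmitotic minus effector cells. Over all probe sets, postmitotic minus naive calls numbered 3250 with the other variance prior, 474 with 6 arrays, 293 without both arrays with Y-linked signal and 859 to 1741 with 1 array left out. Postmitotic minus effector calls numbered 2507 without both arrays. The mean of probe sets also changed the sign of uncalled differences of Tapbp (-0.29 in effector minus naive, -0.013 in postmitotic minus naive), B2m (-0.013 in postmitotic minus naive, 0.14 in postmitotic minus effector), H2-K1 (0.016) and H2-D1 (0.013) in postmitotic minus naive, and Psme3 (0.037) in postmitotic minus effector cells. Tapbp in effector minus naive cells was -0.048 after quantile normalization and -0.0081 without both arrays, where H2-D1 was 0.013 in postmitotic minus naive cells and the second B2m probe set -0.092 in postmitotic minus effector cells. The mean of probe sets takes in the dimmer Tapbp probe set, with -0.59 in effector minus naive and -0.17 in postmitotic minus naive cells. For B2m it takes in the dimmest probe set, with -0.38 in postmitotic minus naive and 0.46 in postmitotic minus effector cells. Causes of the other sign changes were not tested, and some alternatives leave fewer probe sets or arrays. With 1 array left out, uncalled differences that changed sign ranged in effector minus naive cells from -0.065 to 0.079 for Tapbp and from -0.049 to 0.0045 for Irf1, and in postmitotic minus naive cells from -0.084 to 0.0080 for H2-K1 and from -0.12 to 0.014 for H2-D1. In postmitotic minus effector cells they ranged from -0.0034 to 0.14 for Psmb8 and from -0.050 to 0.25 for the second B2m probe set. Calls of genes in the pathway lists in postmitotic minus naive cells ranged over the alternatives from 0 to 10 of 23 for the 19S cap and from 0 to 7 of 16 for the chaperones and peptidases (2 with the replicate block).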
